A study of Mus musculus with 6 samples.

Results

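Amino acid transporters of 6 solute carrier (SLC) families were compared in the messenger RNA of CT26 tumours from mice given PEGylated glutaminase or vehicle. The members were all protein-coding genes of the deposited table whose symbol starts with Slc1a, Slc3a, Slc7a, Slc36a, Slc38a or Slc43a followed by a number. The rule found 42 genes among 40303 gene models, 7 of SLC1, 2 of SLC3, 15 of SLC7, 4 of SLC36, 11 of SLC38 and 3 of SLC43. It used no measured value. CT26 is a mouse colon carcinoma line of BALB/c origin, and the tumours grew under the skin of BALB/c mice labelled WT, whose sex and age the labels do not give. In the PEG-glutaminase group, 3 mice received PEGylated glutaminase, an enzyme that breaks down glutamine, into the peritoneum at 50 IU per kg. In the vehicle group, 3 mice received phosphate-buffered saline with 10% glycerol, and both groups were dosed 2 times at intervals of 3 days. Each tumour gave 1 library, numbered 1 to 3 within its group.

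Amino acids cross membranes on carriers that differ in what they carry and in what drives them. Exchangers such as SLC1A5 and the SLC7A5 and SLC3A2 pair trade one amino acid for another, sodium-coupled carriers such as SLC38A2 load cells against a gradient, and lysosomal carriers such as SLC38A7 and SLC36A1 return amino acids to the cytosol. In tumour cells, glutamine taken up by SLC1A5 and SLC38A2 is known to feed nucleotide and glutamate synthesis and the exchange of leucine through SLC7A5. In cultured mammalian cells several of these genes, among them Slc7a11, Slc38a2, Slc7a1 and Slc7a5, are known targets of ATF4, the transcription factor of the amino acid response.

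Promoters are shown for 5 of the carriers compared below, as the 250 bases before an annotated start. They come from RefSeq on GRCm38.p6, the C57BL/6J reference, which is not the BALB/cJ gene set of the counts, and all 5 lie on the minus strand, written 5′ to 3′ in the sense of the gene. Capitals mark matches to 3 motifs searched on both strands, the C/EBP-ATF response element TGATGNAAN, the antioxidant response element TGACNNNGC and the E-box CACGTG. Slc7a11 is at chr3:50443614-50443863, Slc38a2 at chr15:96699729-96699978, Slc7a1 at chr5:148399905-148400154, Slc38a7 at chr8:95853492-95853741 and Slc1a4 at chr11:20332714-20332963.
Slc7a11: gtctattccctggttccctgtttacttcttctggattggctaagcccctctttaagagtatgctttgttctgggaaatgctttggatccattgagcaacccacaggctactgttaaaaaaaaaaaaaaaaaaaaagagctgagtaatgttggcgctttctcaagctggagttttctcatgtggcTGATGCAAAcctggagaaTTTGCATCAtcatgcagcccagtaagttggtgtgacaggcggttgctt
Slc38a2: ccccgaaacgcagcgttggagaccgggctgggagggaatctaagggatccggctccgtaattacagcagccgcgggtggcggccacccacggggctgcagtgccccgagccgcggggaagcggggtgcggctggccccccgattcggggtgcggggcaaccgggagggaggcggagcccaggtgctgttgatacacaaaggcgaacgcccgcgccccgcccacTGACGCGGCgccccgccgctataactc
Slc7a1: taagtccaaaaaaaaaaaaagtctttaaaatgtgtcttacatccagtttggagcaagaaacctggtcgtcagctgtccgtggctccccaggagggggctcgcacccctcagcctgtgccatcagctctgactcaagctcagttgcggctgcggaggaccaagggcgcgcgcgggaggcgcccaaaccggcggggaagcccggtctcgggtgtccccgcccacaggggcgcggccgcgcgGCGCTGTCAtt
Slc38a7: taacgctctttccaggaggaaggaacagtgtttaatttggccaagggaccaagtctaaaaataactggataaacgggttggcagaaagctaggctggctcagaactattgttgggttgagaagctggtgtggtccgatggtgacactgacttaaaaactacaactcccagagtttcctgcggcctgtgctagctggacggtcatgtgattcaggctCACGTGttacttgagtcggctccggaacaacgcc
Slc1a4: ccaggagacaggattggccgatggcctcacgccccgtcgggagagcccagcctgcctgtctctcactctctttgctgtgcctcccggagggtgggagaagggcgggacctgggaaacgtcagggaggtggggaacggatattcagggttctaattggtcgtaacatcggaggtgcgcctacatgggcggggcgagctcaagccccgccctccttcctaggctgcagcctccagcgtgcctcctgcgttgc
Slc7a11 holds the C/EBP-ATF element 2 times in opposite orientation, starting 66 and 48 bases before the start of the gene. Slc38a2 and Slc7a1 hold an antioxidant element, Slc38a7 an E-box, and Slc1a4 none of the 3. Slc7a1 is listed with another start as well, whose window holds none of them.

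Of the 42 members, 31 had a promoter in that RefSeq set. The others, among them Slc1a5, Slc7a2 and Slc7a5, had none there and were not searched for motifs. The C/EBP-ATF element was in 2 of 31 members (6.45%, Slc7a7 and Slc7a11), beside 3.89% of all 27025 genes with a promoter. The antioxidant element was in 4 of 31 (12.9%, Slc7a1, Slc7a6, Slc38a2 and Slc43a1), beside 11.5% of all genes. The E-box was in 7 of 31 (22.6%), beside 6.86% of all genes, and those 7 were Slc1a6, Slc1a7, Slc7a14, Slc36a1, Slc38a5, Slc38a7 and Slc43a1. Of these 7, Slc36a1 and Slc38a7 passed the filter on low values. A match gives the letters in the window and shows no binding.

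The libraries held 16455052 to 16791267 reads in the PEG-glutaminase group and 17380129 to 18051480 in the vehicle group, and 18300 to 19405 gene models had a read in a library. Values are normalized counts, the reads of a gene divided by the size factor of its library. The defining genes of colon epithelium were low in these tumours, with Epcam at 2.07 to 58.0 and Cdh1 at 31.1 to 125 normalized counts over the 6 libraries, while Vim, a mesenchymal filament protein of CT26 cells and stroma, was among the most abundant transcripts. Libraries also differed in other cells. PEG-glutaminase 2 had the lowest sum of T cell markers (242) and the highest of skeletal muscle markers (1534), and vehicle 1 a sum of keratinocyte markers of 7675, beside 61.4 to 191 in the other 5 libraries. These are bulk tumours, so fewer cells of a type and less RNA per cell cannot be told apart.

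A small set of carriers made up most of the amino acid transporter messages. Per kilobase of the longest transcript, Slc7a5 (2283 normalized counts per kilobase, mean of the 6 libraries), Slc1a5 (2271), Slc3a2 (1824) and Slc38a2 (1553) held 73.7% of the members' summed signal. Slc7a1 (627) and Slc38a10 (577) brought this to 84.9% and the next member, Slc7a6, stood at 264. Per coding kilobase the same 4 led in another order, Slc38a2 (6281), Slc7a5 (5226), Slc1a5 (3828) and Slc3a2 (3027). Of the 42, 23 had a mean of at least 10 normalized counts and were tested, and 19 fell below this filter. The plot of all tested members by tumour shows how close the groups lay for most carriers.

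**Figure D1:**
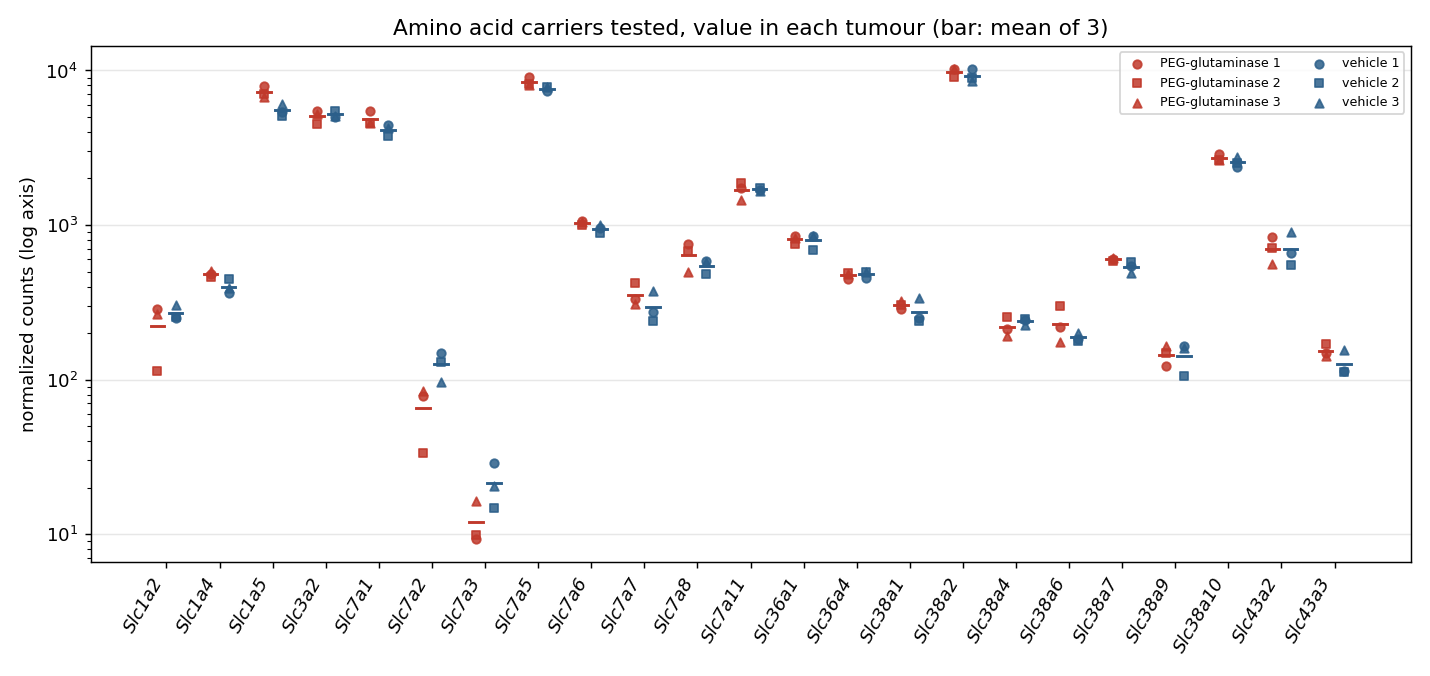
Normalized counts (log axis) of the 23 tested carriers in each of 3 PEG-glutaminase tumours (left of each pair) and 3 vehicle tumours, with bars at group means. The values are not divided by length, so heights do not compare carriers, and the lowest Slc1a2 and Slc7a2 points (113 and 33.7) are both PEG-glutaminase 2.

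No tested member passed limma at a Benjamini-Hochberg adjusted p of 0.05, where 0.0369% of all 13557 tested genes did (0.00738% higher after PEG-glutaminase and 0.0295% lower). The member with the lowest adjusted p was Slc1a5, at 0.133. At an unadjusted p under 0.05 stood 4 members, 3 of them higher after PEG-glutaminase (Slc1a5, Slc1a4 and Slc7a1) and 1 lower (Slc7a2), 4 of 23 beside 18.4% of all tested genes (8.92% higher and 9.51% lower). In 7 of 23 members (30.4%) the groups of 3 had no overlap, beside 25.8% of all tested genes. Of these, 6 were higher after PEG-glutaminase (Slc1a4, Slc1a5, Slc7a1, Slc7a5, Slc7a6 and Slc38a7), beside 13.1% of all tested genes, and 1 was lower (Slc7a2), beside 12.7%. The log2 difference, PEG-glutaminase minus vehicle, was above 0 in 16 of 23 members (69.6%), beside 50.0% of all tested genes, with a median of 0.09 and a range from -1.01 to 0.38. Log2 differences were taken after adding 1 to each value, so those of weakly read genes are pulled towards 0.

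Most differences were small beside their intervals. The 95% limma interval lay within 1 log2 unit of 0 for 20 of 23 members and within 0.5 for 13, and the 3 wider ones were Slc1a2, Slc7a2 and Slc7a3. In 15 of 23 members the coefficient of variation was under 20% in both groups. Over the tested members, the median deviation from each gene's mean was 0.09, 0.05 and 0.03 log2 units in PEG-glutaminase 1, 2 and 3, against -0.06, -0.09 and 0.01 in vehicle 1, 2 and 3. Vehicle 2 was the lowest library for 10 of the 23. Each tumour came from its own mouse, and that spread between mice is what the p-values weigh.

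**Figure D2:**
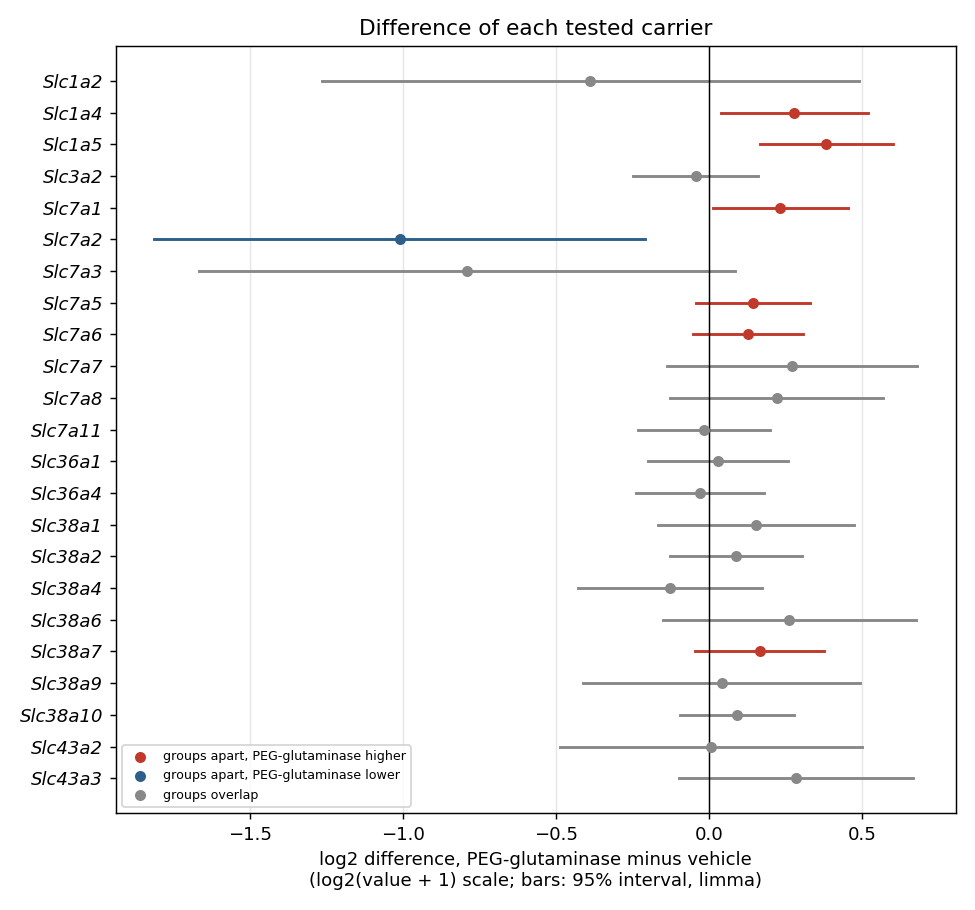
Log2 difference of each tested carrier, PEG-glutaminase minus vehicle, with its 95% interval from limma (points and bars; log2(value + 1) scale, 3 tumours per group). Colours mark the 6 carriers whose groups lay apart and higher after PEG-glutaminase and the 1 that lay apart and lower, and Slc7a2 at -1.01 is the largest difference in size.

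Both neutral exchangers of SLC1 lay above vehicle after PEG-glutaminase, and Slc1a5 had the highest log2 difference of the 23 tested members. Slc1a5 encodes ASCT2, a sodium-dependent exchanger that brings glutamine into cells, and had 7929, 7034 and 6686 normalized counts in PEG-glutaminase tumours, against 5415, 5111 and 6070 in vehicle tumours. Every PEG-glutaminase tumour lay above every vehicle tumour, with means of 7216 ± 641 and 5532 ± 490 (SD, n = 3 each), a ratio of 1.30. The log2 difference was 0.38 ± 0.10 (SE; limma, adjusted p = 0.133). DESeq2 on the recovered reads put Slc1a5 past the threshold (log2 difference 0.38, adjusted p = 0.0163), as it did 3.59% of all tested genes, and it was the only member that DESeq2 called.

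Slc1a4 encodes ASCT1, which exchanges alanine, serine, cysteine and threonine. It had 483, 464 and 503 normalized counts in PEG-glutaminase tumours, against 361, 449 and 388 in vehicle tumours. The groups lay apart, with vehicle 2 the nearest to the PEG-glutaminase tumours. The log2 difference was 0.28 ± 0.11 (SE; limma, adjusted p = 0.223), and without vehicle 1 it was 0.21. Both neutral exchangers stood at an unadjusted p under 0.05 and missed the adjusted threshold in limma.

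The glutamate carriers of SLC1 were low or at 0. Slc1a2, which encodes GLT-1, the main glutamate carrier of astrocytes, had 285, 113 and 265 normalized counts in PEG-glutaminase tumours, against 250, 253 and 303 in vehicle tumours. PEG-glutaminase 2 alone was low, and the log2 difference was -0.39 ± 0.36 (SE; limma, adjusted p = 0.595). Slc17a6, a vesicular glutamate carrier outside these families named after its values were seen, showed the same low library, at 42.5, 2.97 and 54.5 in PEG-glutaminase tumours, against 51.2, 47.1 and 63.8 in vehicle tumours. That library was also the lowest in T cell markers and the highest in muscle markers, and the part of other cells in these values was not tested. Slc1a3, which encodes the glutamate carrier GLAST, was below the filter with 4, 9 and 3 reads in PEG-glutaminase tumours, against 4, 2 and 4 in vehicle tumours.

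SLC3A2, also known as 4F2hc or CD98, is the heavy chain that carries several SLC7 light chains to the cell surface. Slc3a2 had 5441, 4518 and 5218 normalized counts in PEG-glutaminase tumours, against 4991, 5507 and 5108 in vehicle tumours. The groups overlapped, with PEG-glutaminase 2 the lowest and vehicle 2 the highest, and the log2 difference was -0.04 ± 0.09 (SE; limma, adjusted p = 0.828; 95% interval -0.25 to 0.16). The other heavy chain, Slc3a1, partner of Slc7a9 in kidney and gut, reached at most 13.4 normalized counts in a library.

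Of the 6 known light chains of SLC3A2, 5 were tested, 4 with a log2 difference above 0 and 1 below. Slc7a5, which encodes LAT1, an exchanger of large neutral amino acids such as leucine, had 9038, 8160 and 8082 normalized counts in PEG-glutaminase tumours, against 7325, 7791 and 7770 in vehicle tumours. The groups lay apart by a gap smaller than the spread within either, and the log2 difference was 0.14 ± 0.08 (SE; limma, adjusted p = 0.376). Slc7a6, which encodes y+LAT2, an exporter of arginine in trade for glutamine and sodium, had 1057, 1000 and 1045 in PEG-glutaminase tumours, against 950.4, 893 and 999 in vehicle tumours. The groups did not overlap, though PEG-glutaminase 2 and vehicle 3 all but touched (log2 difference 0.13 ± 0.08, SE; limma, adjusted p = 0.407).

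Slc7a7, which encodes the related y+LAT1, had 335, 419 and 308 normalized counts in PEG-glutaminase tumours, against 272, 238 and 377 in vehicle tumours, and overlapped through vehicle 3. Its log2 difference was 0.27 ± 0.18 (SE; limma, adjusted p = 0.438). It was 0.13 without vehicle 2, 0.14 without PEG-glutaminase 2 and 0.46 without vehicle 3, the last at an unadjusted p under 0.05. Slc7a8, which encodes LAT2, a neutral amino acid exchanger, had 752, 682 and 499 in PEG-glutaminase tumours, against 583, 479 and 578 in vehicle tumours, with PEG-glutaminase 3 inside the vehicle range (0.22 ± 0.15, SE; limma, adjusted p = 0.456). Leaving out PEG-glutaminase 3 gave 0.39, at an unadjusted p under 0.05, leaving out PEG-glutaminase 1 gave 0.0995, and leaving out vehicle 2 gave 0.13. Macrophages express Slc7a7, and 7 of 8 macrophage markers had a higher mean after PEG-glutaminase. Of the 8, 2 lay apart (Mrc1 and Lyz2, both higher), the others overlapped, and C1qa had a lower mean. The markers summed to 39723 to 45538 in PEG-glutaminase tumours, against 32324 to 42498 in vehicle tumours, with none of the 8 at 0 in all libraries. Lyz2 was the largest part of the sum (17512 to 19760, against 13995 to 17369 in vehicle). The part of macrophages in the Slc7a7 values was not tested.

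Slc7a11 encodes xCT, which imports cystine in exchange for glutamate, and carries the paired C/EBP-ATF elements shown above. It had 1733, 1875 and 1461 normalized counts in PEG-glutaminase tumours, against 1689, 1747 and 1661 in vehicle tumours. The PEG-glutaminase tumours bracketed the vehicle tumours on both sides, and the log2 difference was -0.02 ± 0.10 (SE; limma, adjusted p = 0.946), with a 95% interval from -0.23 to 0.20. Slc7a10, the sixth light chain, reached at most 3.96 normalized counts in a library.

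Light and heavy chain messages were set side by side per kilobase. The ratio of Slc7a5 to Slc3a2 was 1.33, 1.44 and 1.24 in PEG-glutaminase tumours, against 1.17, 1.13 and 1.22 in vehicle tumours, so the groups lay apart (1.34 ± 0.10 and 1.17 ± 0.04; SD, n = 3 each). With all 6 light chains summed over Slc3a2 the groups overlapped, at 1.74, 1.96 and 1.61 in PEG-glutaminase tumours, against 1.57, 1.46 and 1.63 in vehicle tumours. Slc7a5 made up 75.6% ± 1.58 of the light chain signal in PEG-glutaminase tumours and 75.6% ± 1.52 in vehicle tumours (SD, n = 3 each). The ratio of Slc1a5 to Slc7a5 was 1.10, 1.08 and 1.04 in PEG-glutaminase tumours, against 0.926, 0.822 and 0.979 in vehicle tumours, again with no overlap. For Slc1a5 over Slc38a2 the groups overlapped, at 1.70, 1.70 and 1.43 in PEG-glutaminase tumours, against 1.16, 1.25 and 1.55 in vehicle tumours. An exact permutation test of 3 against 3 cannot give a two-sided p below 0.1, so these ratios were not called.

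**Figure D3:**
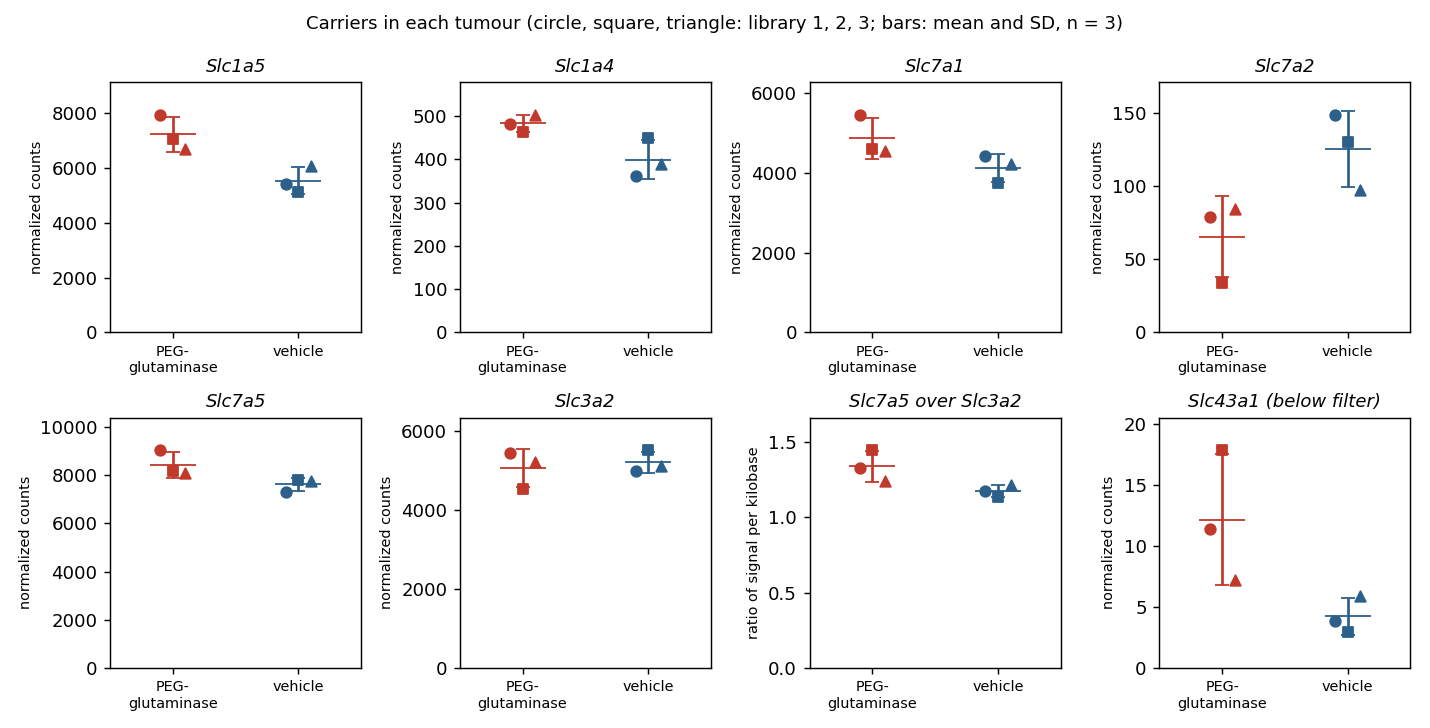
Normalized counts of 7 carriers and the per-kilobase ratio of Slc7a5 to Slc3a2 in each tumour (markers), with the mean and SD of 3 tumours per group and axes from 0. The PEG-glutaminase tumours lay above every vehicle tumour for Slc1a5, Slc1a4, Slc7a1, Slc7a5, the ratio and the low Slc43a1, and below them for Slc7a2. For Slc3a2 the groups overlapped.

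Among the cationic carriers of SLC7, Slc7a1 lay above vehicle and Slc7a2 below it, neither past the adjusted threshold. Slc7a1, which encodes CAT1, the widespread importer of arginine and lysine, had 5456, 4594 and 4549 normalized counts in PEG-glutaminase tumours, against 4429, 3748 and 4228 in vehicle tumours. The groups lay apart, and the log2 difference was 0.23 ± 0.10 (SE; limma, adjusted p = 0.249). PEG-glutaminase 1 was the highest library, and without it the log2 difference was 0.15.

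Slc7a2, which encodes CAT2, the arginine importer of activated macrophages, had 78.7, 33.7 and 84.4 normalized counts in PEG-glutaminase tumours, against 149, 130 and 97.1 in vehicle tumours. The groups lay apart with PEG-glutaminase 2 lowest, and the log2 difference was -1.01 ± 0.35 (SE; limma, adjusted p = 0.201). Without PEG-glutaminase 2 it was -0.59, and without PEG-glutaminase 2 and vehicle 1 together -0.46, a setting chosen after seeing the data. Of the 8 T cell markers all had a lower mean after PEG-glutaminase (sum 242 to 1180, against 1270 to 1731 in vehicle), and of the 6 dendritic cell markers 5 did (5552 to 13237, against 19890 to 32678 in vehicle). Most of the dendritic sum was Cd74 (3903 to 10028, against 14266 to 23770 in vehicle). Among the other dendritic markers, Flt3 overlapped and Zbtb46 had a higher mean. None of the T cell and dendritic cell markers was at 0 in all libraries. The macrophage sums above overlapped between the groups, with 7 of 8 markers higher in mean after PEG-glutaminase and 2 of the 8 apart. The part of any of these cells in the Slc7a2 values was not tested.

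As a share of the summed per-kilobase signal of Slc7a1 and Slc7a2, Slc7a2 was 1.29%, 0.661% and 1.66% in PEG-glutaminase tumours, against 2.96%, 3.06% and 2.04% in vehicle tumours. Slc7a3, a cationic carrier of brain, lay near the filter at 9.32, 9.90 and 16.5 normalized counts in PEG-glutaminase tumours, against 29.0, 14.7 and 20.6 in vehicle tumours. The groups overlapped, and the log2 difference was -0.79 ± 0.39 (SE; limma, adjusted p = 0.310). Slc7a1 held nearly all of the summed signal of the pair in both groups.

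The sodium-coupled system A carriers did not lie apart. Slc38a2, which encodes SNAT2 and is among the 4 highest members per kilobase, had 10148, 9040 and 10159 normalized counts in PEG-glutaminase tumours, against 10159, 8929 and 8549 in vehicle tumours. The highest library of each group stood at the same level, and the log2 difference was 0.09 ± 0.10 (SE; limma, adjusted p = 0.642; 95% interval -0.13 to 0.30). Slc38a1 (SNAT1) stood at 0.15 ± 0.14 (SE; limma, adjusted p = 0.583), with 285, 304 and 321 normalized counts in PEG-glutaminase tumours, against 250.2, 239 and 336 in vehicle tumours. It was 0.09 without vehicle 1, 0.06 without vehicle 2 and 0.31 without vehicle 3, the last at an unadjusted p under 0.05. Slc38a4 (SNAT4, an imprinted carrier of placenta and liver) stood at -0.13 ± 0.14 (SE; limma, adjusted p = 0.630), with 213, 253 and 192 in PEG-glutaminase tumours, against 244, 245 and 227 in vehicle tumours. Slc38a1, Slc38a2 and Slc38a4 are adjacent protein-coding genes on chromosome 15, and in none of the 3 did the groups separate.

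Of the lysosomal members of SLC38, 1 of 2 lay apart. Slc38a7, which encodes SNAT7, an exporter of glutamine from lysosomes, had 599.7, 589 and 609 normalized counts in PEG-glutaminase tumours, against 541, 577 and 488 in vehicle tumours. Every PEG-glutaminase tumour lay above every vehicle tumour, with a coefficient of variation of 1.67% in the PEG-glutaminase group and 8.39% in the vehicle group. At 579, 595 and 592 reads in the PEG-glutaminase libraries, counting error alone would give a wider spread than 1.67%, so that closeness carries no weight. The log2 difference was 0.17 ± 0.09 (SE; limma, adjusted p = 0.360). Slc38a9, an arginine sensor that acts on mTORC1 at the lysosome, had 122, 148 and 166 in PEG-glutaminase tumours, against 164, 105 and 159 in vehicle tumours, and overlapped (0.04 ± 0.20, SE; limma, adjusted p = 0.929).

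Slc38a10, a less studied member, had 2894, 2637 and 2648 normalized counts in PEG-glutaminase tumours, against 2388, 2526 and 2764 in vehicle tumours, with vehicle 3 inside the PEG-glutaminase range (0.09 ± 0.08, SE; limma, adjusted p = 0.568). Slc38a6, another less studied member, had 219, 298 and 174 in PEG-glutaminase tumours, against 183, 179 and 201 in vehicle tumours, and the groups overlapped (0.26 ± 0.19, SE; limma, adjusted p = 0.461). The system N carriers, which move glutamine in liver and brain, were all but unread. Slc38a3 (SNAT3) had 1 read in 1 PEG-glutaminase library and Slc38a5 (SNAT5) had 0 in all 6. A count of 0 in a library allows up to 3 reads, or 2.90 to 3.11 normalized counts, a limit that covers counting error only.

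In SLC36, the proton-coupled carriers, Slc36a1, a lysosomal exporter of small neutral amino acids, had 848, 756 and 826 normalized counts in PEG-glutaminase tumours, against 846, 693 and 849 in vehicle tumours. Its log2 difference was 0.03 ± 0.10 (SE; limma, adjusted p = 0.898). Slc36a4, a carrier of proline and tryptophan, had 449.5, 490.0 and 479 in PEG-glutaminase tumours, against 454, 498 and 495 in vehicle tumours (-0.03 ± 0.09, SE; limma, adjusted p = 0.896). Both overlapped, and both had 95% intervals within 0.5 log2 units of 0. Slc36a2, next to Slc36a1 on chromosome 11, and Slc36a3, next to Slc36a2, reached at most 2.90 normalized counts in a library.

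In SLC43, Slc43a2, which encodes LAT4, a facilitative carrier of large neutral amino acids, spread widely, at 831, 714 and 557 normalized counts in PEG-glutaminase tumours, against 655, 553 and 898 in vehicle tumours. Its log2 difference was 0.01 ± 0.21 (SE; limma, adjusted p = 0.989), and its sign turned with upper quartile scaling and with DESeq2. Slc43a3, which carries purine nucleobases rather than amino acids, had 149, 169 and 142 in PEG-glutaminase tumours, against 114, 112 and 155 in vehicle tumours. Vehicle 3 lay inside the PEG-glutaminase range, and the log2 difference was 0.28 ± 0.17 (SE; limma, adjusted p = 0.388), or 0.44 without vehicle 3, at an unadjusted p under 0.05.

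Slc43a1, which encodes LAT3, was below the filter, and its groups did not overlap. It had 11, 18 and 7 reads in PEG-glutaminase tumours, against 4, 3 and 6 in vehicle tumours, or 11.4, 17.8 and 7.20 normalized counts against 3.86, 2.94 and 5.89. In the limma fit with no filter, over 23228 genes, the log2 difference was 1.29 ± 0.51 (SE; adjusted p = 0.272). LAT3 is known in red blood cell precursors, and Slc38a5, the other carrier listed for these cells, had 0 reads in all 6 libraries. Of 5 erythroid markers, 3 passed the filter (Hbb-bs, Hbb-bt and Alas2), all with a higher mean after PEG-glutaminase. Hba-a1 and Hba-a2 reached at most 1.93 normalized counts in a library and give no direction. The 5 markers summed to 953 to 1310 in PEG-glutaminase tumours, against 480 to 590 in vehicle tumours. Their part in the Slc43a1 values was not tested.

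The members below the filter were 4 of SLC1 (Slc1a1, Slc1a3, Slc1a6 and Slc1a7), Slc3a1, 7 of SLC7 (Slc7a4, Slc7a9, Slc7a10, Slc7a12, Slc7a13, Slc7a14 and Slc7a15), Slc36a2, Slc36a3, 4 of SLC38 (Slc38a3, Slc38a5, Slc38a8 and Slc38a11) and Slc43a1. Of these 19, 6 had no read in any library (Slc1a6, Slc7a12, Slc7a14, Slc7a15, Slc38a5 and Slc38a11). The other 13 ranged from 0 to 17.8 normalized counts in single libraries. Slc36a2, a carrier of glycine and proline in kidney and muscle, was the other one whose groups did not overlap. It had 0, 1 and 0 reads in PEG-glutaminase tumours, against 2, 2 and 2 in vehicle tumours, both under the limit of 3 reads. How often groups lie apart among all genes below the filter was not counted. Neither Slc43a1 nor Slc36a2 therefore has a share to be read against.

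By family, the members' shares of their summed per-kilobase signal were set side by side. SLC1 held 24.6%, 24.3% and 23.1% in PEG-glutaminase tumours, against 20.2%, 19.6% and 21.95% in vehicle tumours (24.0% ± 0.793 and 20.6% ± 1.22; SD, n = 3 each), and the groups lay apart. SLC3 held 16.001%, 14.8% and 16.9% in PEG-glutaminase tumours, against 17.5%, 19.6% and 17.4% in vehicle tumours, apart in the other direction. SLC7, the largest share, was level at 34.1% ± 0.886 in PEG-glutaminase tumours and 34.1% ± 0.203 in vehicle tumours (SD, n = 3 each).

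SLC38 held 22.5% ± 0.858 in PEG-glutaminase tumours and 23.4% ± 1.25 in vehicle tumours, and SLC43 1.41% ± 0.173 and 1.45% ± 0.302 in the same order, both with overlap (SD, n = 3 each). SLC36 held 2.01% ± 0.0939 in PEG-glutaminase tumours and 2.22% ± 0.111 in vehicle tumours (SD, n = 3 each), with PEG-glutaminase 3 and vehicle 2 all but equal. Levels and order depend on the length used. Per coding kilobase SLC38 held 29.7% in PEG-glutaminase tumours and 30.6% in vehicle tumours, above SLC1 at 16.996% and 14.6% in that order. The difference in share, PEG-glutaminase minus vehicle, was then 2.38 percentage points for SLC1, against 3.41 per kilobase of longest transcript. For SLC3 it was -1.40 points per coding kilobase, against -2.28, and the groups lay apart on both scales for SLC1 and SLC3. Shares add to a whole, so a higher share of one family lowers the others. Within SLC1 the share follows Slc1a5, which held 22.7% of the members' signal in the PEG-glutaminase group and 19.3% in the vehicle group, while Slc3a2 held 15.9% and 18.2% in that order. By median log2 difference of tested members, SLC1 stood at 0.28 (3 members), SLC43 at 0.15 (2), SLC7 at 0.13 (8), SLC38 at 0.09 (7), SLC36 at 0.0010 (2) and SLC3 at -0.04 (1), each with 0 members past the limma threshold.

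**Figure D4:**
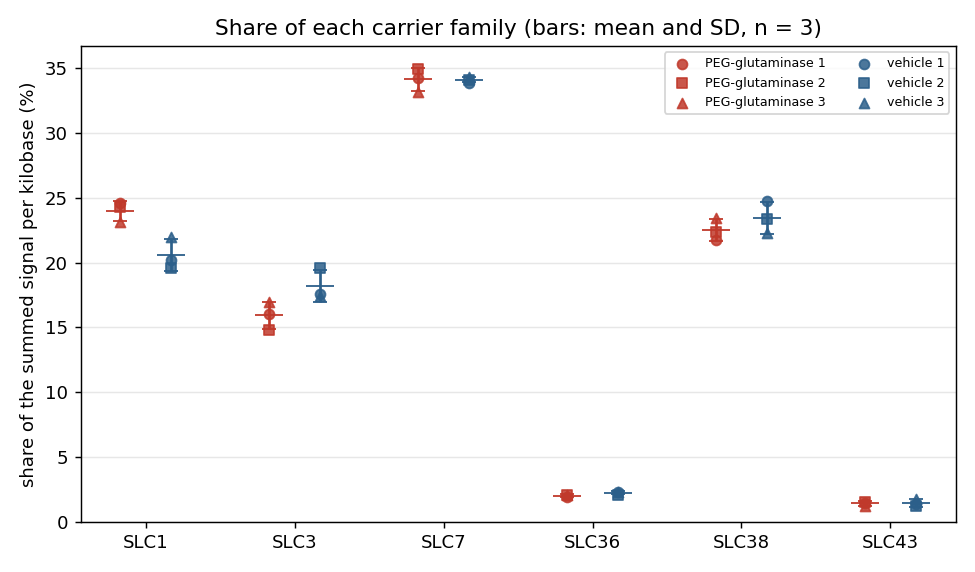
Share of each family in the members' summed normalized counts per kilobase of longest transcript (percent) in each tumour, with the mean and SD of 3 tumours per group. SLC1 lies higher in all 3 PEG-glutaminase tumours (23.1% to 24.6%) than in the vehicle tumours (19.6% to 21.95%), SLC3 lies lower, and SLC7 is level at 34.1% in both groups.

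Among 32 amino acid carriers outside these families, 18 were tested and limma called 0, with 10 log2 differences above 0, 8 below and a median of 0.04. At an unadjusted p under 0.05 stood 3 of the 18, beside 18.4% of all tested genes, and they are named here after their values were seen. Slc6a6, the taurine carrier, had 3314, 4019 and 3842 normalized counts in PEG-glutaminase tumours, against 4912, 4508.5 and 4524 in vehicle tumours (log2 difference -0.32 ± 0.09, SE; limma, adjusted p = 0.141). The mitochondrial carriers Slc25a13, an aspartate and glutamate exchanger, and Slc25a22, a glutamate carrier, each stood at 0.31 ± 0.11 (SE; limma, adjusted p of 0.185 for Slc25a13 and 0.207 for Slc25a22). The groups lay apart for Slc6a6 and Slc25a13 and overlapped for Slc25a22. Over all 18, the groups lay apart in 38.9%, beside 25.8% of all tested genes. Of the carriers apart, 3 were higher after PEG-glutaminase and 4 lower.

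A list of 20 symbols held regulators and partners of these carriers and target genes of ATF4, with Cars also entered as Cars1. Of these, 18 were tested, 9 with a log2 difference above 0 and 9 below, with a median of 0.01 and 0 called by limma. In 33.3% of the 18 the groups lay apart, beside 25.8% of all tested genes. After PEG-glutaminase, 2 of these were higher (Hif1a and Sesn2) and 4 lower (Nfe2l2, Nedd4l, Arl6ip5 and Laptm4b). Atf4 had 10803, 9718 and 9820 normalized counts in PEG-glutaminase tumours, against 9722, 11780 and 9932 in vehicle tumours (log2 difference -0.05 ± 0.10, SE; limma, adjusted p = 0.828). Asns, an asparagine synthetase and ATF4 target, stood at 0.17 ± 0.11 (SE; limma, adjusted p = 0.392), and Ddit3, the stress factor CHOP, at -0.62 ± 0.41 (SE; limma, adjusted p = 0.466), both with overlap. At an unadjusted p under 0.05 stood 2 of the 18, beside 18.4% of all tested genes, and they are named after their values were seen. Sesn2, a leucine sensor of the mTORC1 pathway, was at 0.24 ± 0.09 (SE; limma, adjusted p = 0.224), and Arl6ip5, which lowers glutamate carrier activity, was at -0.29 ± 0.08 (SE; limma, adjusted p = 0.152).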

How the data were processed

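The 6 libraries were grouped by sample titles. Per the labels' protocols, poly-T beads took messenger RNA from the total RNA of lysed tumour, and random hexamers primed the cDNA. STAR, featureCounts, FastQC, DESeq and DESeq2 appear in the submitters' processing notes. Their versions, the build and whether reads were counted by strand are not stated there.

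The deposited signal is the authors' read count divided by a size factor, for BALB/cJ gene models per the file headers. The deposited table also holds the authors' mean signal, log2 fold change with standard error, Wald score and p-values. Values were whole multiples of 1 read's worth within 0.01 for 100% of entries, so reads were recovered. The column check judged 5 of the 6 libraries, since the step of PEG-glutaminase 2 lies near 1. Each model was used once (93 of 40396 rows repeat a model), and 2902 models without a symbol hold 0.130% to 0.214% of reads. Between libraries of a group, chi-square per degree of freedom was at least 8.11, so none was a duplicate.

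Normalized values called for a log-scale test, here limma 3.58.1 in R 4.3.3 (mean trend, robust, two-sided) on log2(value + 1). It covered 13557 genes with a mean of at least 10, with Benjamini-Hochberg adjustment at 0.05. On simulated data this fit recovered 53.2% of 1.5-fold and 66.4% of 2-fold changes, and no fold below 1.5 was simulated. Lengths per kilobase were the longest GENCODE M21 transcripts, matched by Ensembl identifier for all 42 members. Alternatives were no filter, a minimum mean of 50, pseudocounts 0.5 and 5, an adjusted p of 0.1, a replicate block, TMM and upper quartile scaling, edgeR 4.0.16 with 2 scalings, DESeq2 1.42.0, limma-voom, other lengths for shares, and each library left out. Named were members at an unadjusted p under 0.05, members whose groups did not overlap, the 2 highest per kilobase of each family, and a fixed set of carriers. Members, lists and the rule were chosen with earlier results of these data known.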

Additional observations from a re-analysis of the deposited data

Results flagged for a closer look

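The authors' deposited table draws on more than the 6 libraries used here. In it, 567 gene models that are at 0 in all 6 libraries have a mean above 0, and no carrier is among the 567. Only 643 of the 23795 means above 0 in the authors' deposited table lie within 0.1% of the 6-library mean. For genes with a mean above 1000, its log2 fold change and the log2 ratio of the 6 libraries correlated across genes at r = 0.94, and genes are not independent replicates. What else entered that comparison was not analysed here, so its values are not an independent repeat.

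Of 11336 genes given an adjusted p in the authors' deposited table, 447 passed 0.05, and 0 of the 22 carriers among them did. Slc7a8 had the lowest adjusted p of a carrier there (log2 fold change 0.33, adjusted p = 0.205, the authors' Wald test). Slc1a5 stood at 0.24 there (adjusted p = 0.250) and Slc7a2 at -0.20 (adjusted p = 0.857). Slc1a4 stood at 0.08 (adjusted p = 0.817) and Slc7a5 at 0.01 (adjusted p = 0.978). Slc1a2 was at 0.45 in the authors' deposited table (adjusted p = 0.724), the opposite sign to the difference of the 6 libraries given above.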

How the results depend on the processing

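limma called 5 of all tested genes. It called 136 with no filter, 9 at an adjusted p of 0.1, 6 without PEG-glutaminase 2 and vehicle 1 together, and 0 to 26 with single libraries left out (0 without PEG-glutaminase 1, vehicle 1 or vehicle 2, where 1936, 2366 and 1683 genes stood at an unadjusted p under 0.05). DESeq2 called 487. No carrier was called except Slc1a5 by DESeq2, the 1 member it called, and the adjusted p of Slc1a5 over the settings with all libraries ran from 0.0163 to 0.248. The labels state no pairing of mice by number. Same-numbered libraries did not deviate together (correlations of -0.129, -0.214 and -0.220). Deviations from means of 3 libraries cannot show whether mice were paired. limma called 1 gene with a replicate block on the number, with 1924 at an unadjusted p under 0.05, and the lowest adjusted p of a carrier was 0.248.

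The members' median log2 difference ran from 0.068 to 0.15 with single libraries left out, the highest without vehicle 3, the count at an unadjusted p under 0.05 from 2 to 6 of 23 (all tested genes 12.4% to 18.4%), and the count of members without overlap from 7 to 11 of 23. Groups of fewer libraries overlap less in any gene: without vehicle 3 the 11 members (47.8%) stood beside 37.1% of all tested genes, and without PEG-glutaminase 1 the 7 (30.4%) beside 35.0%. Without PEG-glutaminase 2 and vehicle 1 together 10 members (43.5%) stood beside 48.4%. Slc43a2 changed sign with upper quartile scaling (-0.0012), edgeR with DESeq2 size factors (-0.0039), DESeq2 (-0.0039) and both libraries left out (-0.05), where Slc3a2 stood at 0.0066, Slc36a1 at 0.13, Slc36a4 at -0.098 and Slc7a11 at -0.098. With single libraries left out, sign changed for Slc3a2 (-0.10 to 0.036), Slc7a11 (-0.094 to 0.085), Slc36a1 (-0.066 to 0.080), Slc36a4 (-0.072 to 0.0076), Slc38a9 (-0.165 to 0.16) and Slc43a2 (-0.15 to 0.20). The sign held for Slc38a2 (0.04 to 0.16), Slc38a4 (-0.23 to -0.04), Slc38a7 (0.10 to 0.22), Slc38a10 (0.04 to 0.15), Slc7a5 (0.09 to 0.17) and Slc7a6 (0.09 to 0.17). The cause was not tested. With 3 tumours per group, the 95% intervals of most carriers include 0, and members under 10 normalized counts are limited by depth.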
